A study of Mus musculus with 50 samples.

Results

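DNA methylation of imprinted genes was examined in the *soleus*, a slow hindlimb muscle, of mice with and without DNMT3A in mature muscle fibres. The set comprised 51 imprinted genes outside the Igf2 and H19 locus, chosen by name. A CpG was counted as a member if its deposited promoter or gene body assignment held the Ensembl identifier of such a gene. Of the 51 genes, 37 had at least 1 CpG, which gave 442 CpGs in 101 clusters of neighbouring CpGs out of 205304 CpGs and 51038 clusters in all. No CpG was assigned to Kcnq1ot1, Nespas, Peg13, Rian, Ndn, Nnat, Snrpn, Airn, Mest, Meg3, Commd1, Phlda2, Mirg or Sgce. Because a CpG carried at most 1 gene in each assignment, CpGs within Peg13, Airn and Nespas stood under the genes that overlap them, Trappc9, Igf2r and Gnas. The clusters were divided by level. A cluster was taken as near 50% when the mean of its WT and mD3AKO levels was 35 to 65%, which held for 21 of the 101. Because the mD3AKO level enters this mean, a large difference between genotypes can itself move a cluster out of the band, so the division by the WT mean alone is given beside it. The WT mean is in turn a term of the difference, so that division is not free of selection either.

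The samples were single muscles of 12-week-old male and female C57BL/6 mice. WT mice were Dnmt3a flox/flox without Cre. Muscle-specific knockout mice (mD3AKO, KO in the sample titles) were Dnmt3a flox/flox and carried Cre driven by the muscle creatine kinase promoter (*mCK-Cre*), which is active in muscle fibres, so that satellite cells and non-muscle cells keep DNMT3A. Resting muscles came from mice placed in a sham treadmill arena, and the others were collected 10, 30 or 60 min after 30 min on a treadmill. WT gave 21 muscles with counts (5 at rest and 5, 5 and 6 at the later times) and mD3AKO gave 23 (5 at rest and 5, 7 and 6). A methylation level is the share of methylated calls in percent, and a difference is mD3AKO minus WT in percentage points unless stated otherwise.

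Genomic imprinting is the expression of a gene from a single parental allele. At a germline differentially methylated region (germline DMR) the methylation is laid down in the egg or the sperm by DNMT3A with its cofactor DNMT3L. After fertilization it is copied at each cell division by DNMT1, and it is protected by zinc finger proteins such as ZFP57, which binds methylated TGCCGC. A region that is methylated on a single allele reads as a level of about 50% in any cell type, whereas ordinary promoters are usually unmethylated and gene bodies usually methylated. Muscle creatine kinase is expressed late in muscle development, long after germline imprints have been set.

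Reduced representation bisulfite sequencing (RRBS) gave 12819404 to 41285655 methylation calls per sample. The level over all calls of a sample averaged 29.8% ± 4.56 (SD) over the 21 WT and 29.1% ± 4.16 (SD) over the 23 mD3AKO muscles. Single samples ranged from 20.1 to 37.5%. This level weights each CpG by its coverage. Without that weight, the mean over CpGs ran from 24.0 to 26.6% in WT muscles and from 23.2 to 25.7% in mD3AKO muscles. Dnmt3a itself had 21 CpGs, and their coverage relative to the sample total had a mD3AKO to WT ratio of 0.897 to 1.24, so the deletion could not be read from this table. Member clusters had a median of 31 to 2747 calls per sample, and the lowest number of calls of a member cluster in a sample was 8. The 44 samples were separate animals by their title numbers. Numbers 1 to 25 held the muscles at rest and 60 min and numbers 26 to 50 those at 10 and 30 min, so that a difference of rest and 60 min from 10 and 30 min cannot be told apart from the set of numbers. Rest with 60 min and 10 with 30 min share a set, and both genotypes were in each set.

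The sequences printed here show what was measured, on the plus strand of GRCm38 (mm10) as given by RefSeq, with the CpGs of the cluster in capitals. The first set holds partly methylated clusters at starts of germline DMR genes, 3 of them near 50% and that of Airn below the band. These clusters were chosen as examples of the sequence measured at such starts. They come from Grb10 (chr11:12026763-12026844), Peg13 within an intron of Trappc9 (chr15:72809780-72810079), an exon of Gnas 1144 bases from a start of that gene (chr2:174298999-174299298) and Airn within an intron of Igf2r (chr17:12742232-12742310). For Peg13 and Gnas the first 300 bases of a longer cluster are given.
Grb10: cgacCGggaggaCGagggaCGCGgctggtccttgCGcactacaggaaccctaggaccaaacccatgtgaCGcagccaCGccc
Peg13: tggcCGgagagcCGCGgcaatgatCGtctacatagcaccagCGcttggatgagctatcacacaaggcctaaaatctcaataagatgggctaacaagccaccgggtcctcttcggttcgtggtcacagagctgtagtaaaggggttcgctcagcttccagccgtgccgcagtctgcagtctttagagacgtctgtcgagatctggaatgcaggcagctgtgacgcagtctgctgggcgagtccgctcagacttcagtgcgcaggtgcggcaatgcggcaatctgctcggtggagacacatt
Gnas: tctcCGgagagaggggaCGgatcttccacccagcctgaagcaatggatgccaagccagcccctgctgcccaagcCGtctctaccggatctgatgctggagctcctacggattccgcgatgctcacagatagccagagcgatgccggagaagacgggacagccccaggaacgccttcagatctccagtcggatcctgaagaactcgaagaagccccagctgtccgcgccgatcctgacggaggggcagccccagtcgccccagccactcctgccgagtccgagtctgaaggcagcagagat
Airn: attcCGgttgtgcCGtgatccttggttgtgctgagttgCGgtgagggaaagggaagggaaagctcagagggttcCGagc

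The second set holds intronic clusters that lie far from any germline DMR gene start and were lower in mD3AKO, with flanking bases on both sides. The Kcnq1 cluster (chr7:143389212-143389340) passed the test of genotype, and the Trappc9 cluster (chr15:72928162-72928262) had the lowest unadjusted p-value among the clusters near 50%.
Kcnq1: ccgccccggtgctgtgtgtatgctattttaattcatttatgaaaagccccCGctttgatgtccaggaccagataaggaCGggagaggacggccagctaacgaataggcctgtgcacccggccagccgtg
Trappc9: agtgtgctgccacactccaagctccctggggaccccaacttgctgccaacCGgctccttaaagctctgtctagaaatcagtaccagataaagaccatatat

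Germline DMR gene starts near 50% were examined first. At these 10 clusters the means differed by -9.86 to 6.10 percentage points, 5 of them lower and 5 higher in mD3AKO, and none passed the test of genotype (edgeR quasi-likelihood test, Benjamini-Hochberg adjustment over all 51038 clusters, adjusted p below 0.05). By the same rule 1.09% of all clusters were called, 1.08% lower and 0.00588% higher in mD3AKO. A cluster was placed in this class when it lay within 2000 bases of an annotated start of a gene with a known germline DMR. The distance was chosen after the levels were seen. Any annotated start of such a gene counted, so a cluster of this class need not lie within the germline DMR itself. By the mean of the WT and mD3AKO levels, all 10 clusters of this class lay below 50%. Of the 9424 clusters near 50% of genes that are no members, 4412 did. Parental alleles were not told apart.

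Plagl1 encodes a zinc finger transcription factor that regulates other imprinted genes, and its start carries a maternal germline mark. The cluster over its start (chromosome 10, 13090887 to 13091127, 12 CpGs in a non-coding exon and the adjoining sequence) ranged from 11.1 to 69.8% in WT with a median of 38.8%, and from 19.8 to 54.5% in mD3AKO with a median of 39.8%. The mD3AKO range lay within the wider WT range. The means were 37.6% ± 14.3 (SD, n = 21) and 39.0% ± 9.38 (SD, n = 23), a difference of 1.43 (95% interval -6.06 to 8.91).

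Zrsr1, a retrogene related to a splicing factor, lies in an intron of Commd1 and is methylated on the maternal allele. Its cluster (chromosome 11, 22971952 to 22974116, 17 CpGs) was 11.9 to 57.1% in WT, with a median of 45.2%, and 27.7 to 67.8% in mD3AKO, with a median of 46.6%. The lowest WT muscle was far below the other muscles of its group. The difference of the means was 4.42 (95% interval -1.78 to 10.6). Within the cluster the single CpGs averaged 32.0 to 70.8% in WT and 33.3 to 76.0% in mD3AKO, the highest of them side by side in the first 300 bases.

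Mcts2 is a retrogene in an intron of H13, whose product is the intramembrane protease signal peptide peptidase, and the methylated maternal Mcts2 start is tied to the choice of the H13 polyadenylation site. The cluster over the Mcts2 start (chromosome 2, 152686854 to 152687094, 13 CpGs) was 15.6 to 56.7% in WT and 10.0 to 61.6% in mD3AKO, with medians of 35.4 and 38.1%. All 13 of its CpGs had the higher mean in mD3AKO, by amounts that were small beside the spread between muscles, as the difference of the means was 3.70 (95% interval -4.69 to 12.1).

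Peg13, a non-coding RNA within Trappc9, is expressed from the paternal allele. The cluster over its start (chromosome 15, 72809784 to 72810615, 7 CpGs, listed under Trappc9) was 20.6 to 68.9% in WT with a median of 42.4% and 12.3 to 62.7% in mD3AKO with a median of 40.1%. All 7 CpGs had the lower mean in mD3AKO. The means were 42.8% ± 13.7 (SD, n = 21) and 37.2% ± 13.8 (SD, n = 23), and the interval of the difference, -14.0 to 2.77, included 0.

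Grb10 encodes an adaptor protein that restrains insulin signalling and growth, and it uses a start in most tissues that differs from the one used in neurons. The cluster at the internal start (chromosome 11, 12026767 to 12026840, 7 CpGs, intron) had a wide spread between muscles, 8.78 to 89.0% in WT and 0.433 to 70.9% in mD3AKO. Its means were nearly equal, 36.6% ± 21.6 (SD, n = 21) and 36.5% ± 21.6 (SD, n = 23). A single CpG at another Grb10 start (12038625) lay below the band, at 28.6% ± 16.0 and 21.9% ± 14.4.

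Gnas encodes the stimulatory G protein alpha subunit and longer forms of it from several starts, and Nespas is its antisense transcript. Of 8 Gnas clusters, 4 were near 50%. The one with the most calls (chromosome 2, 174299003 to 174300115, 9 CpGs, exonic) was 11.3 to 71.2% in WT and 19.6 to 72.2% in mD3AKO, with medians of 44.9 and 48.0%. Its means differed by 2.12 (95% interval -6.02 to 10.3). The other 3, around the Nespas start, had WT means of 32.7 to 54.2% and mD3AKO means of 38.8 to 48.4%, and the differences were 6.10, -9.86 and 3.77. The first 2 of these are neighbours and differed in direction, and each interval included 0.

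A single CpG represented each of the other 2 starts. Peg10, a gene derived from a retrotransposon that is needed in the placenta, had WT and mD3AKO means of 42.5% ± 24.3 (SD, n = 21) and 41.9% ± 21.5 (SD, n = 23) at chromosome 6, 4747418. Nap1l5, a retrogene in an intron of Herc3, was at 47.1% ± 19.0 and 45.6% ± 20.6 (chromosome 6, 58906768). These levels rested on medians of 81.5 and 89 calls per sample.

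**Figure D1:**
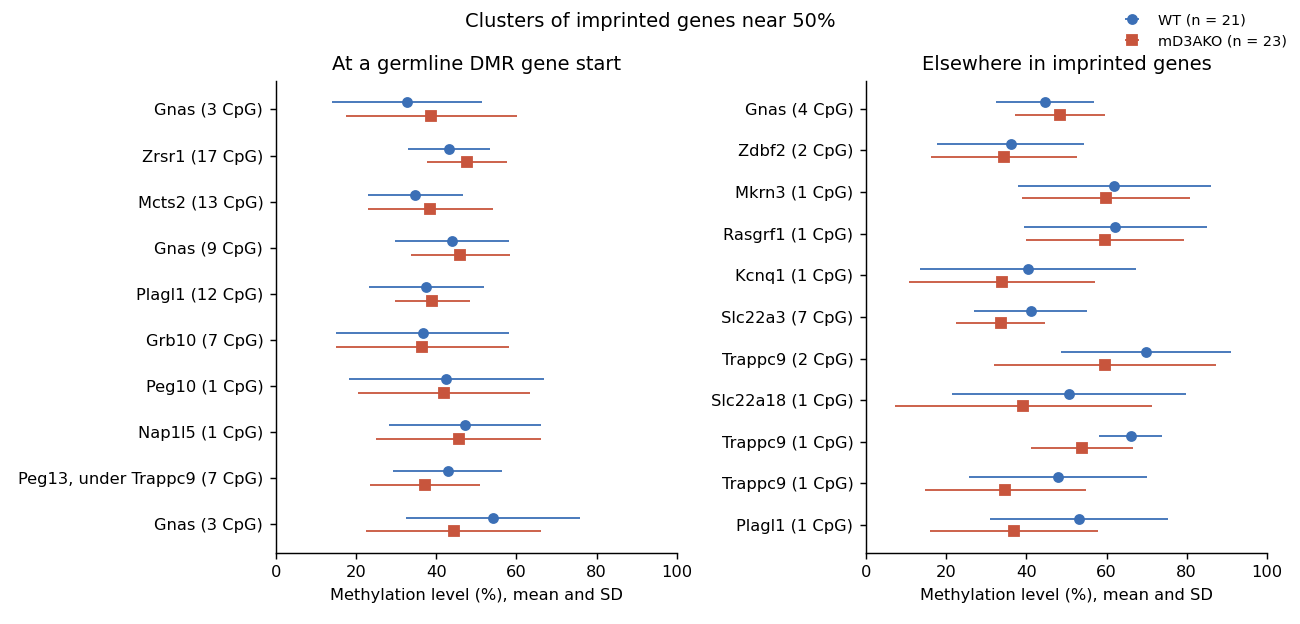
Methylation level (x axis, percent, mean and SD over 21 WT and 23 mD3AKO muscles) of the 21 clusters near 50% (y axis), with the 10 at germline DMR gene starts on the left and the 11 elsewhere on the right, each ordered by the difference between genotypes. On the left 5 clusters had the lower mean in mD3AKO and 5 the higher, and on the right 10 of 11 had the lower mean.

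**Figure D2:**
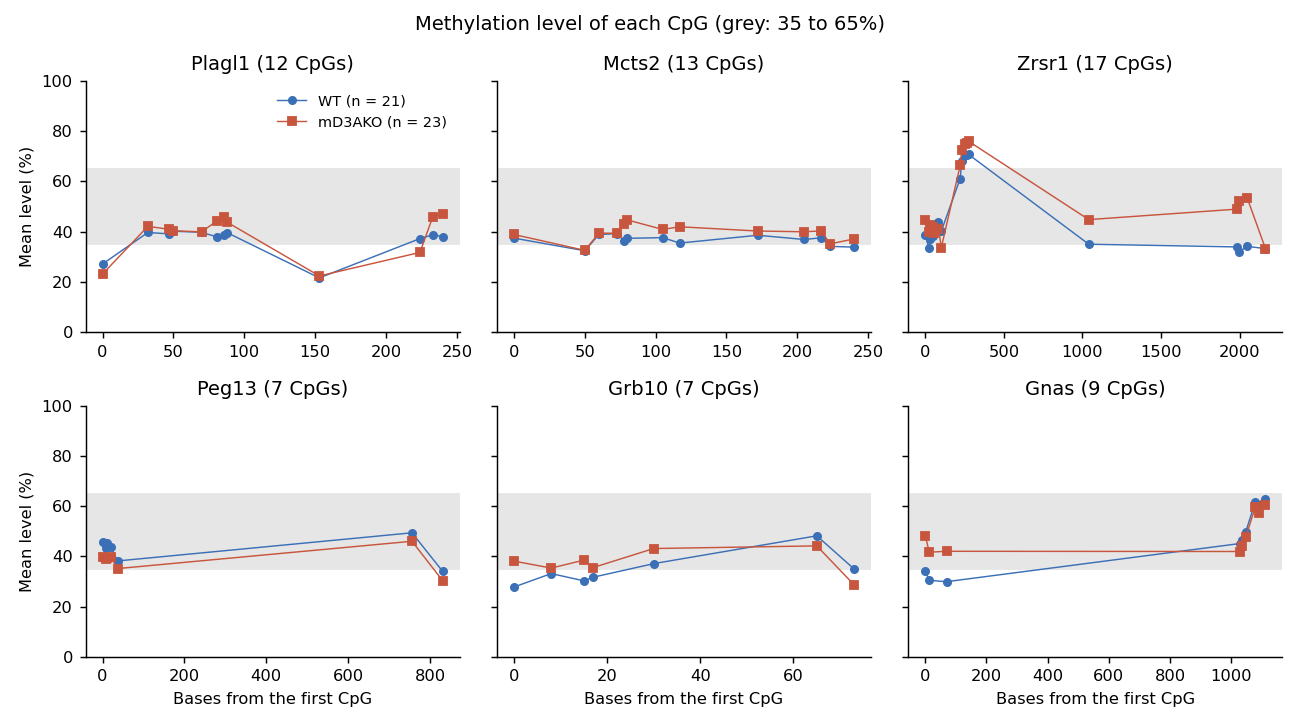
Mean level (y axis, percent) of each CpG against its distance in bases from the first CpG of the cluster (x axis) for 6 clusters at germline DMR gene starts, with WT in blue and mD3AKO in red; the grey band spans 35 to 65%. Of the 73 CpGs in the 10 clusters of this class, 25 had the lower mean in mD3AKO and 57 were themselves near 50%.

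Germline DMR gene starts with levels just under the band were examined next. With the single Grb10 CpG at 12038625 they were 7, of which 5 had the higher mean in mD3AKO. The clusters at the Gnas start that gives exon 1A (174327875 to 174327896, 4 CpGs, and 174328405 to 174328465, 6 CpGs) were at 34.0% ± 22.8 and 30.6% ± 18.6 in WT and at 33.6% ± 17.8 and 38.2% ± 17.3 in mD3AKO. Impact, which encodes a regulator of a translation initiation factor kinase, had 3 CpGs in an intron near its start at 28.2% ± 17.4 and 35.8% ± 19.6 (chromosome 18, 12973155 to 12973197). Igf2r, the receptor that clears insulin-like growth factor 2, is silenced on the paternal allele by the antisense RNA Airn. Its 3 clusters were at 25.8, 23.3 and 29.0% in WT and at 32.2, 25.2 and 33.6% in mD3AKO, the first of them at the Airn start and the last, with 8 CpGs, at the Igf2r promoter. Each of the 3 Igf2r means was higher in mD3AKO, by 6.36, 1.87 and 4.59, with 95% intervals that included 0 in every case. None of these clusters was called.

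The 17 clusters at germline DMR gene starts with a level of 15 to 65% are a class formed after the levels were seen. By the mean of the WT and mD3AKO levels all 17 lay below 50%. Of these 17 clusters 7 (41.2%) had the lower mean in mD3AKO, and the median difference was 1.87. Within them 30 of 101 CpGs had the lower mean, but CpGs of 1 cluster are not separate observations. Over all clusters of the table the median difference was -0.455 and 62.4% had the lower mean in mD3AKO. The mean level of these 17 clusters in a muscle was 36.2% ± 7.37 (SD) over the 21 WT muscles and 37.4% ± 6.29 (SD) over the 23 mD3AKO muscles. It ran from 22.9 to 49.3% and from 25.7 to 45.8%, so that the mD3AKO muscles lay within the WT range.

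The remaining clusters at starts of germline DMR genes, those outside the partly methylated class just described, were at the extremes. Because they were set apart by their level, this does not show that unmarked starts differ from marked ones. Zdbf2, whose germline mark lies upstream of its main start, had 9 CpGs at the main start at 1.07% ± 1.92 in WT and 0.754% ± 1.17 in mD3AKO. Inpp5f had 10 CpGs at its first start at 0.410 and 0.920%. The Gnas start of the main protein had 11 CpGs at 0.250 and 0.347%, and Rasgrf1, a guanine nucleotide exchange factor, had 4 CpGs at 1.27 and 1.57%. By contrast, 1 CpG of Inpp5f near an internal start was at 96.8 and 99.7%, and 2 exonic CpGs of Impact were at 97.9 and 94.9%.

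Clusters near 50% away from germline DMR gene starts were lower in mD3AKO in 10 of 11 cases, with a median difference of -7.49. This compares with a median of -2.10 over the 9424 clusters near 50% of genes that are no members, of which 65.8% had the lower mean in mD3AKO. At an unadjusted p below 0.05, 3 of 11 passed, against 9.55% of all clusters. None of the 11 was called, but the band decides this, since it takes in the mD3AKO level. By the WT mean alone the class held 13 clusters with a median difference of -8.37, and it then included both called clusters described further on. By the same band the germline DMR gene starts were 8, with a median difference of -0.36. As the WT mean is also a term of the difference, this division can select for clusters lower in mD3AKO. No background over other genes was taken by the WT mean alone. Of these 11 clusters 7 were single CpGs, and the median number of calls per sample was 73, against 366 at the germline starts. The difference between the classes was not tested, as the members were chosen with earlier results known. Over all 21 clusters near 50% the median difference was -2.13, which turned to 1.77 when only the 10 with at least 3 CpGs were taken, since the single CpGs are mostly in the second class.

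Of the 11 clusters, 2 had at least 3 CpGs. Slc22a3, an organic cation transporter that is imprinted in placenta, had 7 CpGs upstream of its start (chromosome 17, 12508047 to 12508148) at 13.3 to 76.0% in WT and 13.2 to 53.7% in mD3AKO, with medians of 39.9 and 32.5%. The upper part of the WT range was not reached by any mD3AKO muscle. The means were 41.1% ± 14.1 (SD, n = 21) and 33.6% ± 11.1 (SD, n = 23), with a difference of -7.49 (95% interval -15.3 to 0.307), an edgeR unadjusted p of 0.0599 and an adjusted p of 0.560. The other was the Gnas intron cluster 2285 bases from the Nespas start, which alone in this class had the higher mean in mD3AKO, 48.4% ± 11.2 against 44.7% ± 12.2.

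Trappc9, which encodes a subunit of a vesicle trafficking complex, held 3 clusters of this class within its introns and an exon. The intronic CpG whose sequence is shown (chromosome 15, 72928212) was 50.0 to 77.0% in WT with a median of 68.0%, and 33.3 to 74.1% in mD3AKO with a median of 56.7%. Of 23 mD3AKO muscles 17 lay below the WT mean. The difference was -12.1 (95% interval -18.5 to -5.74), with an unadjusted p of 0.00432 that did not pass the adjustment over all clusters (edgeR adjusted p = 0.171). The other 2 differed by -13.2 and -10.3, with intervals of -26.1 to -0.227 and -25.2 to 4.64.

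An intronic CpG of Plagl1, 5036 bases from the nearest Plagl1 start (13108429), was at 53.2% ± 22.3 in WT and 36.9% ± 20.9 in mD3AKO. Its difference of -16.3 stood beside 1.43 at the Plagl1 start, but it rested on a median of 58 calls per sample and was not called (edgeR adjusted p = 0.404). The remaining single-CpG or 2-CpG clusters were in Kcnq1 (143370523), Slc22a18, a transporter gene, Mkrn3, a ring finger gene of the Prader-Willi region, Rasgrf1 and Zdbf2. Their differences ran from -11.4 to -1.66, each with an interval that included 0.

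Just 2 of the 101 member clusters were called for genotype, or 1.98%, beside 1.09% of all clusters, and both fell in mD3AKO. They were in H13 and Kcnq1. Neither lay near a germline DMR gene start. Both were below the band by the mean of the genotypes (22.2 and 35.0%), but their WT means of 35.8 and 47.3% lay inside it. At an unadjusted p below 0.05, 18 members passed (17.8%), 16 of them lower and 2 higher in mD3AKO, beside 9.55% of all clusters, of which 8.30% were lower and 1.25% higher. In no member cluster were the WT and mD3AKO samples fully apart, which was so in 0.00784% of all clusters.

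H13 carried the larger difference. The cluster is 1 CpG in an untranslated exon of H13 (chromosome 2, 152707392), 15553 bases from the nearest start of that gene and downstream of Mcts2. At rest the WT muscles were at 0.763, 21.4, 25.0, 26.4 and 70.7%, and the mD3AKO muscles at 0.568, 3.49, 3.51, 8.21 and 12.4%. At 10 min the WT muscles were at 28.3, 28.5, 32.0, 40.0 and 75.0%, and the mD3AKO muscles at 0, 0, 12.4, 12.5 and 26.2%. The lowest WT muscle at rest lay among the mD3AKO values, and the other WT muscles at both times lay above every mD3AKO muscle of the same time. At 30 min WT ran from 26.7 to 45.2% with a median of 30.4%, and mD3AKO from 1.96 to 21.4% with a median of 8.50%. At 60 min WT ran from 9.65 to 80.0% and mD3AKO from 0 to 19.9%. The groups did not overlap at 10 or 30 min, but each holds few muscles. The share of all clusters without overlap at a single time was not counted. The cluster was picked by its genotype p-value in these same muscles, so separation at single times is no added support. Over all muscles the means were 35.8% ± 20.0 (SD, n = 21) and 8.52% ± 7.99 (SD, n = 23), all 23 mD3AKO muscles lay below the WT mean, and the log2 odds ratio was -2.80 ± 0.57 (SE, edgeR adjusted p = 0.00425). The number of calls at this CpG was 8 to 272 per sample with a median of 102.5.

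Kcnq1, a potassium channel gene whose intron holds the start of the silencing RNA Kcnq1ot1, had 6 clusters, of which the called one lay in an intron 92713 bases from the Kcnq1ot1 start (chromosome 7, 143389262 to 143389290, 2 CpGs, the sequence shown). At rest the WT muscles were at 17.2, 40.4, 52.9, 58.5 and 75.4% and the mD3AKO muscles at 12.7, 13.6, 25.5, 30.6 and 34.7%. At 30 min WT was at 54.8, 67.9, 71.4, 71.9 and 80.9%, and mD3AKO at 8.45 to 27.3% with a median of 19.0%. The genotypes overlapped at rest through 1 WT muscle and did not overlap at 30 min, with the same limits as for H13. At 10 min WT was at 14.3 to 34.9% apart from 1 muscle at 87.9%, and mD3AKO at 10.9 to 39.4%, so that the groups overlapped. At 60 min WT ran from 24.3 to 66.0% and mD3AKO from 16.2 to 25.7%. The overall means were 47.3% ± 23.0 (SD, n = 21) and 22.6% ± 8.30 (SD, n = 23), with a log2 odds ratio of -1.62 ± 0.34 (SE, edgeR adjusted p = 0.00565). By time, the edgeR adjusted p was 0.0403 at 30 min, the only member call at a single time, 0.977 at 60 min and 1 at rest and 10 min. At rest and at 10, 30 and 60 min 0.00392, 0.0137, 0.0176 and 0.00784% of all clusters were called. At 30 min the call remained in limma, where 0.0568% of all clusters were called, but it was lost with sex in the model (0.0098% of all) and, in limma, without WT 30 min replicate 37, 38 or 44 or mD3AKO 30 min replicate 41. At a coverage minimum of 20, where the cluster is not kept, no member was called (0.032% of all).

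**Figure D3:**
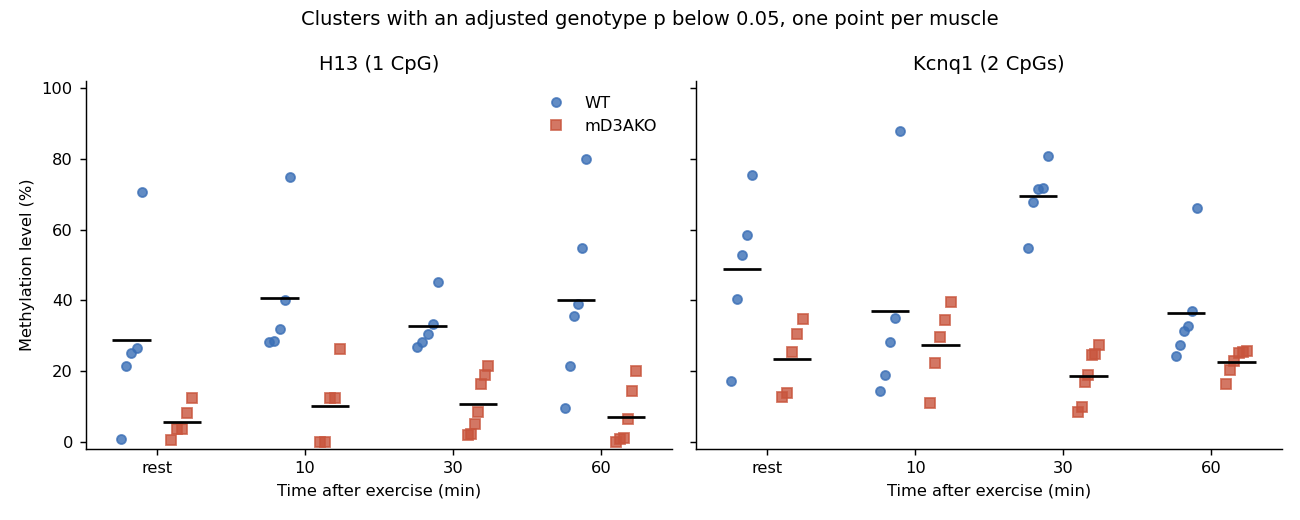
Methylation level (y axis, percent) of each muscle at rest and at 10, 30 and 60 min after exercise (x axis) for the H13 and Kcnq1 clusters, with WT as blue circles, mD3AKO as red squares and a black bar at each group mean. The mD3AKO muscles do not exceed 26.2% in H13 and 39.4% in Kcnq1, whereas the WT muscles reach 80.0 and 87.9%.

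Both calls rested on CpGs of modest coverage, and both clusters drop out at a coverage minimum of 20. Within numbers 1 to 25 alone the edgeR adjusted p was 0.357 for H13 and 0.510 for Kcnq1, and within 26 to 50 it was 0.213 and 0.247. In limma the adjusted p stayed below 0.05 for both without any single sample. The number of members called for genotype was 6 in the edgeR likelihood ratio test, in which 2.95% of all clusters were called. These were the H13 and Kcnq1 clusters, another CpG of H13 (152680865, adjusted p = 0.0386 in the likelihood ratio test and 0.507 in the quasi-likelihood test of edgeR), and clusters of Gnas, Impact and Herc3. It was 3 in limma and with sex in the model, beside 1.75 and 1.12% of all clusters. It was 0 at a coverage minimum of 20, in numbers 1 to 25 and in numbers 26 to 50, beside 1.52, 0.049 and 0.0647%.

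Among clusters not near 50%, the 8 with the next lowest p-values were not called. All 8 had the lower mean in mD3AKO. In Ppp1r9a, which encodes a neuronal actin-binding protein, an intronic pair of CpGs (chromosome 6, 5094677 to 5094738) was at 81.5% ± 11.6 and 72.9% ± 8.87 (edgeR adjusted p = 0.0761). The adjusted p was 0.0312 with sex in the edgeR model and 0.0446 in limma, but 0.18 in the edgeR likelihood ratio test and 0.476 in edgeR at a coverage minimum of 20. Another Kcnq1 intron cluster (143412664 to 143412771, 3 CpGs), between the called cluster and Cdkn1c, was at 38.4% ± 11.4 and 28.0% ± 12.1 (edgeR adjusted p = 0.212).

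The 6 others covered the Gnas intron (174334518, 10.1 and 4.87%), the Impact exon (97.9 and 94.9%), the intron beside the start of Asb4, a ubiquitin ligase subunit gene (8.32 and 5.13%), the intron beside the start of Herc3, a ubiquitin ligase gene (1.67 and 0.249%), and a Trappc9 intron and exon (84.2 and 73.0%, and 97.4 and 95.2%). The edgeR adjusted p of these 6 ran from 0.259 to 0.397. In the edgeR likelihood ratio test 3 of them were called, Gnas (adjusted p = 0.0111), Impact (adjusted p = 0.00349) and Herc3 (adjusted p = 0.00754). The Herc3 level was 0 in the median WT and in the median mD3AKO muscle, and the highest WT muscle of each time was at 5.66 to 8.43%.

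The remaining clusters were taken by domain. In the Kcnq1 domain of distal chromosome 7, Cdkn1c encodes a cyclin-dependent kinase inhibitor expressed from the maternal allele, and its mark is acquired after fertilization. Its exonic cluster of 13 CpGs was at 29.2% ± 11.0 in WT and 30.8% ± 11.3 in mD3AKO, and 5 CpGs upstream were at 23.1 and 26.6%. The start of Slc22a18 was at 25.8 and 29.0% (3 CpGs). Ascl2, a transcription factor of the placenta, had 6 CpGs over its start at 2.31 and 1.45%. The start of Kcnq1 was unmethylated (1.86 and 1.49%, 6 CpGs), and 2 intronic CpGs were at 92.1 and 96.0% in WT and 86.4 and 94.4% in mD3AKO. Further toward Cdkn1c, the 3 remaining intronic clusters, the called one among them, had WT means of 38.4 to 47.3%.

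In the Prader-Willi and Angelman region, Magel2, a regulator of endosomal trafficking, had 13 CpGs at 27.7% ± 6.35 and 27.9% ± 7.44, a narrow spread for a partly methylated cluster. Peg12 had 8 CpGs at its start at 13.7 and 17.6%, and Ube3a, the ubiquitin ligase of Angelman syndrome, had 1 intronic CpG at 96.7 and 97.2%. In the Peg3 domain, 3 CpGs in the last part of Peg3, a zinc finger gene, were at 89.0 and 91.6%. Zim1, another zinc finger gene, had 2 exonic clusters at 87.7 to 89.6% and its start at 0.101 and 0.328%. Usp29, a ubiquitin protease gene, had 5 intronic clusters with WT means from 17.6 to 85.0%. Of these, 4 had the lower mean in mD3AKO, by -4.10 to -11.5, and 1 the higher, by 6.84.

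In the Dlk1 to Dio3 domain of chromosome 12, 4 clusters upstream of Dlk1, which encodes a transmembrane inhibitor of differentiation, were at 0.918 to 6.24% in WT. Dio3, which inactivates thyroid hormone, had 20 CpGs at 0.950% ± 0.765 and 0.864% ± 0.707, and Rtl1, a retrotransposon-derived gene, had 2 CpGs at 88.9 and 85.4%. In the Peg10 domain of chromosome 6, the start of Ppp1r9a was at 1.30 and 0.611% (19 CpGs), and that of Calcr, the calcitonin receptor, at 4.41 and 3.36%. CpGs in the last exon of Peg10 were at 90.4 to 94.5% in both genotypes. Copg2, a coatomer subunit gene, had 11 CpGs at 0.702 and 0.612%. Klf14, a transcription factor gene with a single exon, had 17 CpGs at 8.54 and 7.32%. Blcap was at 0.444 and 0.189% (9 CpGs), and Ddc, the aromatic amino acid decarboxylase next to Grb10, had clusters at 31.3 and 25.5% in WT and 25.6 and 24.6% in mD3AKO.

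In the genes already described, H13 had 4 further clusters with WT means of 0.440 to 89.9%, each with the lower mean in mD3AKO, by -0.133 to -6.35. Trappc9 had 8 further clusters, of which 5 had the lower mean in mD3AKO and 3 the higher, with differences of -9.39 to 4.57. Its start, with 19 CpGs, was at 0.710 and 0.677%. Slc22a3 was at 0.644 and 1.05% over its start (12 CpGs), at 16.9 and 14.2% just upstream of it and at 91.5 and 88.3% in an intron. The other 3 intronic clusters of Ppp1r9a were at 31.8, 96.5 and 79.4% in WT and at 31.7, 96.0 and 78.0% in mD3AKO. Herc3 was at 0.804 and 0.594% in an exon at its start and at 93.7 and 88.9% in an intron. Single CpGs of Ascl2, Peg12 and Rasgrf1 and an exonic cluster of Zdbf2 differed by 1.36, -3.87, 0.610 and -1.41. None of these was called in the edgeR quasi-likelihood test.

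By level, 49 of the 101 clusters were under 35% with a median difference of -0.255, and 31 were over 65% with a median difference of -1.43. The same medians over clusters of genes that are no members were -0.202 and -0.769. The 80 clusters not near 50% had a median difference of -0.580 and 51 of them the lower mean in mD3AKO (63.8%, beside 62.4% of all clusters). Of the members closest to the edges of the band, Zdbf2 (35.2%) and Trappc9 (64.7%) were just inside, and Kcnq1 (35.0%), Usp29 (34.8%) and Zdbf2 (65.9%) just outside.

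**Figure D4:**
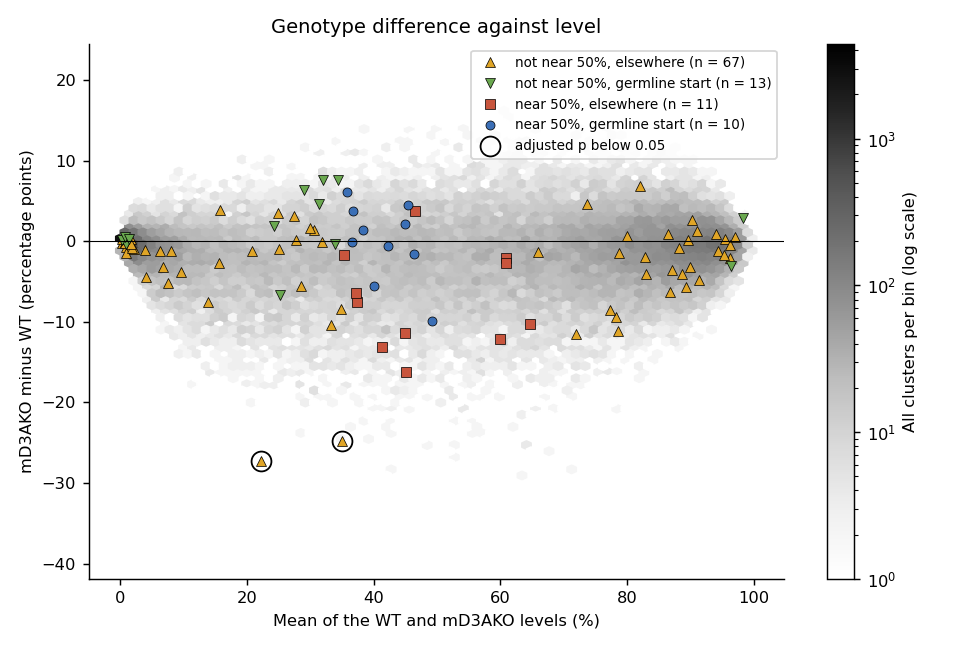
Difference between genotypes (y axis, mD3AKO minus WT in percentage points) against the mean of the WT and mD3AKO levels (x axis, percent) for the 101 clusters of imprinted genes (symbols) over all 51038 clusters (grey, number per bin on a log scale). The circled H13 and Kcnq1 clusters lie at -27.3 and -24.7, and the 10 germline DMR gene starts near 50% lie between -9.86 and 6.10.

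Time after exercise was tested across both genotypes. No member was called for time or for the interaction of genotype and time in edgeR, and neither was any of the 51038 clusters (0%). At an unadjusted p below 0.05, 3 members passed for time and 6 for the interaction (2.97 and 5.94%), beside 2.85 and 2.73% of all clusters. None of these was near 50%. In the likelihood ratio test, 1 member was called for time and 1 for the interaction, beside 0.801 and 0.837% of all clusters. At rest and at 10 min 1 member each was called for genotype in the likelihood ratio test, the H13 CpG at 152680865 and the Impact exon, beside 0.331 and 0.449% of all clusters, and none in the quasi-likelihood test or in limma (0.0294% of all clusters at 10 min). The lowest time p of a member was that of the Ppp1r9a intron cluster (an unadjusted edgeR p of 0.00153 and an adjusted p of 1). Its WT mean was 78.9% ± 12.6 (SD, n = 5) at rest, 94.4% ± 7.33 (SD, n = 5) at 10 min, 79.7% ± 7.86 (SD, n = 5) at 30 min and 74.3% ± 8.97 (SD, n = 6) at 60 min. Its mD3AKO means were 68.7, 77.5, 71.3 and 74.5% at the same times. The lowest interaction p was that of the called Kcnq1 cluster (an unadjusted edgeR p of 0.0156 and an adjusted p of 1), whose WT means were 48.9, 36.8, 69.4 and 36.4%, against 23.4, 27.3, 18.7 and 22.6% in mD3AKO.

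Averaged over the 10 germline DMR gene starts near 50%, the level per muscle in WT was 37.7% ± 8.98 (SD, n = 5) at rest, 38.3% ± 6.01 (SD, n = 5) at 10 min, 45.7% ± 10.1 (SD, n = 5) at 30 min and 44.0% ± 6.23 (SD, n = 6) at 60 min. In mD3AKO it was 42.5% ± 10.1 (SD, n = 5), 40.4% ± 8.76 (SD, n = 5), 41.7% ± 7.00 (SD, n = 7) and 41.5% ± 6.12 (SD, n = 6). The ranges of all 8 groups overlapped. At rest the female muscles were at 50.7 and 41.3% in WT and at 52.0, 47.2 and 49.8% in mD3AKO. The male muscles at rest were at 28.0, 30.9 and 37.6% in WT and at 34.8 and 29.0% in mD3AKO. The sexes were thus unevenly shared between the genotypes at rest, where each female lay above each male. At 10, 30 and 60 min the female and male values overlapped over both genotypes. The part of sex in these means was not tested. The Mcts2 start had the narrowest group, with 26.0% ± 2.48 (SD, n = 5) in WT at rest, and 38.2% ± 22.2 (SD, n = 5) in mD3AKO at 10 min.

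The spread between muscles was set beside that of other clusters. The median SD of a cluster was 16.5 percentage points in WT and 18.1 in mD3AKO at the 10 near 50%, from a median of 366 calls per sample. All clusters near 50% of genes that are no members had a median SD of 16.7 in WT and 15.5 in mD3AKO, from a median of 133.5 calls. Where they held at least 3 CpGs, it was 12.1 and 11.5, from a median of 295 calls. The corresponding values of the 10 member clusters near 50% with at least 3 CpGs were 14.2 and 13.1, from 542 calls.

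Part of this spread moved with the library. Across muscles the mean of the 17 partly methylated clusters at germline DMR gene starts rose with the level of all calls of the sample, with Pearson's r = 0.73 and Spearman's rho = 0.81 in WT (n = 21) and r = 0.64 and rho = 0.70 in mD3AKO (n = 23). Without the 2 samples farthest from the median r was 0.70 and 0.73. Within numbers 1 to 25 and 26 to 50, r was 0.67 and 0.82 in WT and 0.66 and 0.63 in mD3AKO. The clusters near 50% elsewhere gave r = 0.63 and rho = 0.56 in WT and r = 0.23 and rho = 0.31 in mD3AKO. These are descriptions of 4 relations, with no p-value, as the points are means over chosen members. After the group means were removed, pairs of the 17 clusters at different genes had a median correlation of 0.12 over the 44 muscles (130 pairs, -0.28 to 0.58), in libraries that they share. The level of all calls weights each CpG by its coverage, and the unweighted level was not set beside these clusters. Whether the library level sets the level at imprinted clusters was not tested.

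**Figure D5:**
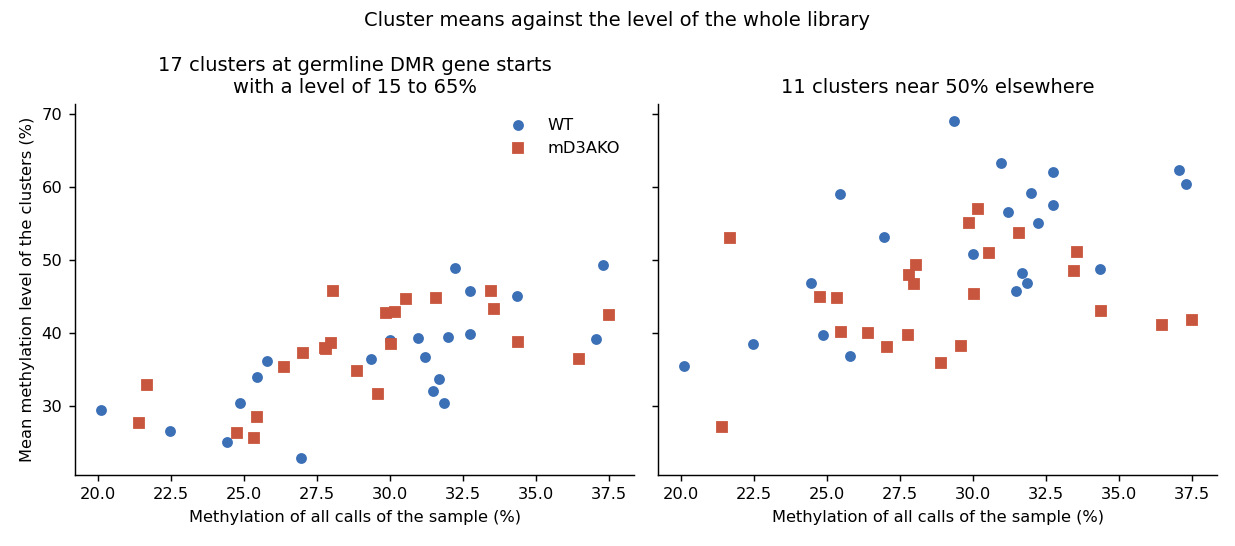
Mean level of the clusters in each muscle (y axis, percent) against the methylation of all its calls (x axis, percent), for the 17 partly methylated clusters at germline DMR gene starts (left) and the 11 clusters near 50% elsewhere (right), with WT in blue and mD3AKO in red. On the left both genotypes rise along the same band, from 22.9 to 49.3%, and on the right most of the higher values are WT.

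Sequence context was described for the germline DMR gene starts beside other clusters near 50%, without a test. In 300 bases centred on the cluster, the germline starts near 50% held a median of 18.5 CpGs, the clusters near 50% elsewhere in imprinted genes 8, and clusters near 50% of other genes 6. The motif TGCCGC, searched on both strands, was found in 5 of the 10 germline windows and in 1 of the 11 others, which was the Mkrn3 start. It was found in 9.66% of windows over all clusters and in 4.48% of those near 50% of other genes. The 5 windows were those of Plagl1 (2 matches), Mcts2 (3), Gnas (4), Peg13 (1) and Nap1l5 (2). A window covers only part of the longer clusters, such as Zrsr1, Gnas and Peg13, and the counts are for the window alone. The printed Peg13 sequence holds further matches outside its window. A window without the motif therefore does not show a cluster without it. The window of the called H13 CpG held 5 CpGs and that of the called Kcnq1 cluster 16, and neither held the motif.

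Other lists were taken for background. Genes that set, protect or remove imprints (19 genes, from Dnmt1 and Zfp57 to the Tet enzymes) had 44 clusters with a median difference of -0.489, and none was called, beside 1.09% of all clusters, with 5 at an unadjusted p below 0.05 (11.4%, beside 9.55% of all clusters). Another 23 imprinted genes that are no members had CpGs in 16, with 39 clusters and a median difference of -0.215. At an unadjusted p below 0.05, 7 of the 39 passed (17.9%). A single one of these was called by edgeR (2.56%, beside 1.09% of all clusters), 6 CpGs in Jade1, a chromatin reader gene (chromosome 3, 41581211 to 41581359), which fell from 29.9% ± 8.73 to 18.5% ± 6.28 (adjusted p = 0.0313).

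Promoter CpGs of cell type markers were few. Of the muscle fibre genes, Tnnc1, the slow troponin C, was at 0.548% in WT and 0.483% in mD3AKO, and Acta1, skeletal actin, at 11.5 and 17.4%. The endothelial gene Kdr was at 1.19 and 1.20%, and the fibroblast gene Pdgfra at 7.93 and 6.91%. Of 2 promoter clusters of Pax7, a satellite cell gene, 1 fell from 20.6% ± 5.44 to 12.6% ± 3.84 (5 CpGs, edgeR adjusted p = 0.00972). The share of non-muscle cells in these muscles was not measured, and its part in the levels of imprinted genes was not tested.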

How the data were processed

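The authors trimmed 75-bp single-end RRBS reads with Trim Galore 0.4.0 and cutadapt 1.9.1 and aligned them to mm10 with Bismark 0.18.1. The deposited counts give methylated and unmethylated calls for each CpG in each sample, not normalized, with assignments to promoters, gene bodies and clusters. The lowest coverage was 8. Calls without molecular identifiers include PCR copies, so their number overstates the number of molecules. Of 50 samples, 44 had counts and 6 were not used here.

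Counts were summed per cluster and fitted in edgeR 4.0.16 with 8 group means, a term for each sample and a common dispersion (0.441), with two-sided quasi-likelihood F tests and Benjamini-Hochberg adjustment over 51038 clusters. Samples of a group were separate animals by their title numbers. The 101 pairs within groups gave a chi-square per CpG of 5.98 to 14.5, so no pair held the same calls. This value cannot exclude a second library of the same muscle. Alternatives were the edgeR likelihood ratio test, limma 3.58.1 on log2 ratios with a pseudocount of 1, a coverage minimum of 20, sex as a term, sample numbers 1 to 25 or 26 to 50 alone, other bands, and each of 44 samples left out (in limma). The fit was tested on 5000 simulated clusters. The quasi-likelihood test called 50% of 100 clusters with a log2 odds ratio of -1 and 97% of 100 with -2. Of 4800 clusters without a difference it called 0.0833%. The simulation used a single spread, not set to that of the germline DMR gene starts, so the share it would call there is not known. A cluster that was not called may still differ. Intervals of differences (95%) used unequal variances and are unadjusted.

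Members, lists and classes were chosen with earlier results of these data known, and the start distance and the 15 to 65% class after levels were seen. Named were clusters near 50% (those with 3 or more CpGs in full), the 10 others with the lowest genotype p, every called cluster, and the lowest p for time and interaction. The remaining clusters were described by domain or gene. Annotation was GENCODE release M21 on GRCm38, on which 1 row of the table did not lie on a CG.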

Additional observations from a re-analysis of the deposited data

Results flagged for a closer look

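Among the named clusters and 4 means over clusters, 189 group values were examined for a muscle set far apart from the others of its group. Of these, 19 stood apart, where chance gives about 1 in 20, or 9.5. At germline DMR gene starts, Grb10 was at 16.9% in WT 30 min replicate 44 (nearest other 48.8%) and Zrsr1 at 11.9% in WT 30 min replicate 32 (nearest other 47.5%). The mean over the 10 germline starts near 50% was 27.8% in WT 10 min replicate 35, with the nearest other at 38.8%.

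Of the called clusters, H13 was at 75.0% in WT 10 min replicate 42 (nearest other 40.0%), and Kcnq1 at 87.9% in the same muscle (nearest other 34.9%) and at 66.0% in WT 60 min replicate 25 (nearest other 36.8%). Replicate 42 was also apart in Ppp1r9a, at 81.7%, below 95.1%, and in Herc3, at 8.43%, above 0.758%. Herc3 was further apart at 5.66% in WT 30 min replicate 37, at 8.11% in WT 60 min replicate 25 and at 2.70% in mD3AKO 60 min replicate 10.

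The Trappc9 intron (73048511) was at 29.4% in WT 60 min replicate 25, the Impact exon at 99.7% in WT 60 min replicate 9 where the others were at 100%, and Asb4 at 2.22% in WT 10 min replicate 35. The Gnas intron (174334518) was at 32.4% in mD3AKO 30 min replicate 33 and at 25.6% in mD3AKO 60 min replicate 6. The mean over the 11 clusters near 50% elsewhere was 35.5% in WT 30 min replicate 32. The mean over the 80 clusters not near 50% was 39.5% in WT 10 min replicate 35 and 35.0% in mD3AKO 30 min replicate 27. Level over all calls was 20.1% in WT 30 min replicate 32, the lowest of the 44 muscles, 25.8% in replicate 42 and 24.7% in replicate 27. The part of the library in these values was not tested.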

How the results depend on the processing

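The genotype effect called 2 member clusters in the edgeR quasi-likelihood test, 6 in the likelihood ratio test (background 2.95%), 3 in limma and 3 with sex as a term, and 0 at a coverage minimum of 20, in samples 1 to 25 and in samples 26 to 50. Both called clusters had too little coverage for a minimum of 20, and the sample subsets held fewer animals. Without single samples limma called 2 to 4, with 4 without WT 10 min replicate 42 or mD3AKO 30 min replicate 33. The time effect and the interaction each called 0 in edgeR, limma and every alternative but the likelihood ratio test, which called 1 each, in Kcnq1 (143348054, adjusted p = 0.0202, limma unadjusted p = 0.00581) and Impact (12988522, adjusted p = 0.0351, limma unadjusted p = 0.106). Alternatives for single times were chosen after seeing the data. The genotype effect at rest and at 10 min called 0, and 1 each in the likelihood ratio test (background 0.331 and 0.449%). Without WT 10 min replicate 42 limma called 1 at 10 min (0 to 1 over all samples, background 0.0294% with all samples). The Kcnq1 call at 30 min was lost (0) with sex as a term and at a coverage minimum of 20. In limma it was lost without WT 30 min replicate 37, 38 or 44 or mD3AKO 30 min replicate 41 (0 to 1).

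The median difference of the clusters near 50% was -2.13, and -5.61 to 1.77 over other bands, coverage and CpG minimums. At germline DMR gene starts near 50% it was 0.66, with -1.08 to 1.77 over the alternatives and -0.24 to 2.21 without single samples, so that its sign was not stable. Elsewhere near 50% it was -7.49, with -12.1 to -1.86 and -10.1 to -5.88. The clusters not near 50% gave -0.753 to -0.133. The log2 odds ratio reversed at Grb10 (-0.03 in edgeR, and in limma -0.17 with all samples and 0.16 without mD3AKO 10 min replicate 28, with -0.34 to 0.16 over all samples left out) and at Gnas (174299003, -0.11 at a coverage minimum of 20, from 0.15), neither of which was called. The cause of these changes was not tested unless stated. No paired analysis was possible because the groups share no sample numbers.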
